A study of Homo sapiens with 2 samples.

Results

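ATP-binding cassette (ABC) genes were taken as every gene of the count table whose symbol is ABC, a subfamily letter from A to G and a number, with nothing after it. This gave 46 of the 26485 genes listed. RNA was measured in SK-LMS-1 and SK-UT-1 cells, established human leiomyosarcoma lines (tumours with smooth muscle features). Each line was treated with the solvent DMSO and is represented by 1 total RNA library, and no further genotype or treatment is given for either line. The series concerns an inhibitor of the histone methyltransferase SUV39H2 combined with an inhibitor of poly(ADP-ribose) polymerase (PARP) in uterine leiomyosarcoma, and the question here is how ABC gene expression differs between the lines with solvent alone. SK-LMS-1 had 6906280 counts and SK-UT-1 had 7635850. Each value is from 1 library of 1 line, so no difference has a replicate check, no p-value is given, and what separates the lines cannot be told apart from what separates the libraries. In RNA from many cells, fewer cells with a transcript and less transcript per cell cannot be told apart either.

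ABC proteins share ATP-binding domains that work in pairs, and most couple ATP hydrolysis to moving lipids, drugs, peptides or metabolites across a membrane. ABCB1 (P-glycoprotein), ABCG2 (breast cancer resistance protein) and several ABCC members (multidrug resistance-associated proteins) pump many anticancer drugs out of cells, and ABCB1 is known to carry several PARP inhibitors, olaparib among them. Subfamilies A and G also hold cholesterol and phospholipid transporters, subfamily D and part of subfamily B serve peroxisomes, lysosomes and mitochondria, and subfamilies E and F are soluble factors of the ribosome and of translation that lack membrane-spanning domains.

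The promoters of 5 members are shown because these genes carry the contrasts described below. ABCB1, ABCG2 and ABCA1 had counts mainly or only in SK-LMS-1, ABCC2 had counts only in SK-UT-1, and ABCE1 had the highest level per length in both libraries. Each window runs from 250 bases before to 50 bases after a RefSeq transcript start (GRCh38.p14), 5′ to 3′ on the gene's strand, and capitals mark CG dinucleotides, the sites of most DNA methylation. The windows lie at chr7:87600835-87601134 (minus strand) for ABCB1, chr4:88158590-88158889 (minus) for ABCG2, chr9:104928106-104928405 (minus) for ABCA1, chr10:99782390-99782689 (plus) for ABCC2 and chr4:145098061-145098360 (plus) for ABCE1.
ABCB1: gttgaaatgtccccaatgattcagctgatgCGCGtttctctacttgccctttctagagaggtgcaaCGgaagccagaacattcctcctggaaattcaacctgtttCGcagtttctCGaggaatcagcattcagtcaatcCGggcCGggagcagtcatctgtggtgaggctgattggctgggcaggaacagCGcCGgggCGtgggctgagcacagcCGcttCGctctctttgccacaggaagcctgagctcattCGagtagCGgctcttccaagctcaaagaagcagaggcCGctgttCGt
ABCG2: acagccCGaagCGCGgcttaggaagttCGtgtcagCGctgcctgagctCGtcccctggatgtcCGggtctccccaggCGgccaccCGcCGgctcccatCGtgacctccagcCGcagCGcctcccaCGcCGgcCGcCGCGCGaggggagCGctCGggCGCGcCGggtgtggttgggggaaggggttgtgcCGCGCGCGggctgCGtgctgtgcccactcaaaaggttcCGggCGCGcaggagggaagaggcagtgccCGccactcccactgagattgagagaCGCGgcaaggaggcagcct
ABCA1: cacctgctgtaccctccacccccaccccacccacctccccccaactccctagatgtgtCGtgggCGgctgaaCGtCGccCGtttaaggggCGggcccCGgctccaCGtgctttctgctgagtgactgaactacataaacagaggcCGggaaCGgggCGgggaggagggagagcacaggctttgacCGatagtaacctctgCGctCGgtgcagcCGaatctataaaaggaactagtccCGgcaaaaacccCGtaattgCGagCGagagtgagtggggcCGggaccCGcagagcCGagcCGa
ABCC2: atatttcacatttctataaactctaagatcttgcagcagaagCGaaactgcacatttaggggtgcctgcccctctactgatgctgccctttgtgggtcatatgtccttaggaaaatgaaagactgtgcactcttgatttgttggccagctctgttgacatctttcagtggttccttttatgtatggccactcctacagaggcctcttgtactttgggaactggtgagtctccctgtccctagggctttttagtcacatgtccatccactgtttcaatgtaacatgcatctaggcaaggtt
ABCE1: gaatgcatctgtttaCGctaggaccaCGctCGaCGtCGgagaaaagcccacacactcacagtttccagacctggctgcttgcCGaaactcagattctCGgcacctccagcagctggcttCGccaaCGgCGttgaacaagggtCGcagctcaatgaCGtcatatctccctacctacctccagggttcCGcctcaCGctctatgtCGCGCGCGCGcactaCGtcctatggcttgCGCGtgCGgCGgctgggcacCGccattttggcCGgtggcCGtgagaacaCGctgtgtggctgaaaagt

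The ABCC2 window holds 1 CG dinucleotide, against 16 in ABCB1, 23 in ABCA1, 28 in ABCE1 and 35 in ABCG2. RefSeq lists 2 starts for ABCB1 and 5 for ABCG2, and the one nearest the gene's 3′ end is shown. The files do not say which start was used in these cells.

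CPM (a gene's counts per 1000000 counts of its library, with library sizes scaled by the TMM method) was used to compare a gene between the lines, and genes with at least 1 CPM in whichever library was higher were called measured. Of the 46 ABC genes, 29 were measured, among 14324 measured genes in the table. A difference of at least 2-fold was called by size alone, after raising counts below 3 to 3. By that rule 8 ABC genes were higher in SK-LMS-1 (among them ABCC9, ABCA1, ABCG2, ABCC3, ABCA5, ABCB1 and ABCA3), 8 were lower in SK-LMS-1 than in SK-UT-1 (ABCA8, ABCC2, ABCA4, ABCA7, ABCC6, ABCB9, ABCB10 and ABCA2), and 13 were within 2-fold. The called share was 55.2% of the measured ABC genes, against 40.2% of all measured genes. By direction, 27.6% of the measured ABC genes were higher in SK-LMS-1, against 21.9% of all measured genes, and 27.6% were higher in SK-UT-1, against 18.3%. At least 4-fold differences were found for 12 ABC genes, 7 of them higher in SK-LMS-1 with the other 5 higher in SK-UT-1, which is 41.4% of the measured ones, against 18.7% of all measured genes. A gene that is measured only through its higher library has to be low in the other, so these shares describe the 29 measured genes and not all 46. By role, the median log2 ratio of SK-LMS-1 over SK-UT-1 was -1.04 in the lipid transporters of subfamily A, -0.19 in the multidrug resistance proteins of subfamily C, 0.30 in the organelle transporters of subfamily B, -0.17 in subfamily D and 0.24 in subfamilies E and F. The subfamily A median is the value of ABCA2 and no shared shift, as its genes ran from 5.79 (ABCA1) to -4.56 (ABCA8). Its summed CPM was 92.2 in SK-LMS-1, against 81.6 in SK-UT-1.

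The family's share of the library was nearly equal in the lines. ABC genes took 0.138% of all counts in SK-LMS-1 (95% interval 0.135 to 0.141, exact), against 0.141% in SK-UT-1 (0.139 to 0.144). The median log2 ratio of SK-LMS-1 over SK-UT-1 was 0.04 over the 29 measured ABC genes, against 0.01 over all measured genes (-0.11 and -0.15 when libraries are scaled by their totals), while the median size of the log2 ratio, whatever its sign, was 1.08, against 0.76. The large ratios were among the genes of low and middle level. All 6 ABC genes at 1 to 10 CPM in the higher library were past 2-fold, against 61.5% of all measured genes at that level. At 10 to 50 CPM this held for 10 of 16 ABC genes (62.5%, against 36.2%), and at 50 CPM or more for 0 of 7, against 28.0%. A group of 6 genes had 0 counts in one library: ABCC2, ABCA8 and ABCC6 in SK-LMS-1, and ABCC9, ABCA1 and ABCB1 in SK-UT-1. They make up 20.7% of the measured ABC genes, against 7.35% of all measured genes with 0 counts in one library. A measured gene with 0 counts in one library is past 2-fold by construction, because it is measured through the other library alone. ABCB1, ABCC2 and ABCC6 are among the genes at 1 to 10 CPM, as is ABCA4 with 1 count in SK-LMS-1. The share past 2-fold at that level therefore partly reflects the filter, which applies to all measured genes too.

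**Figure D1:**
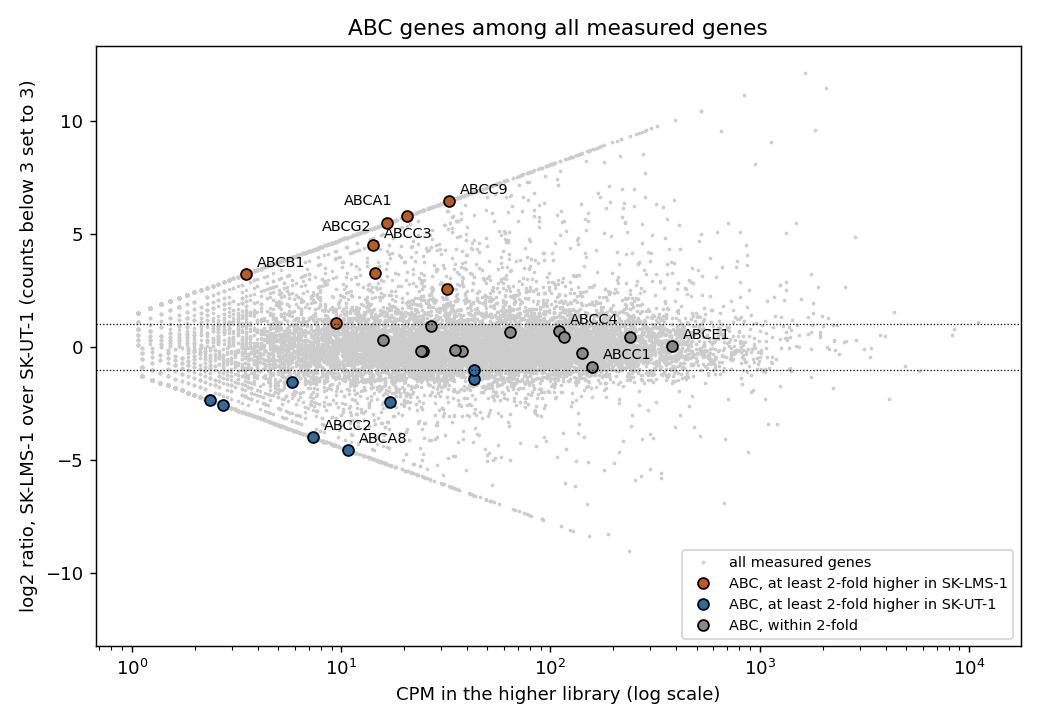
Log2 ratio of SK-LMS-1 over SK-UT-1 (vertical) against the CPM of the higher library on a log axis (horizontal), with all 14324 measured genes as small grey points and the 29 measured ABC genes as large points; dotted lines mark 2-fold. The 7 ABC genes at 50 CPM or more lie between the dotted lines, and the 6 below 10 CPM lie outside them.

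**Figure D2:**
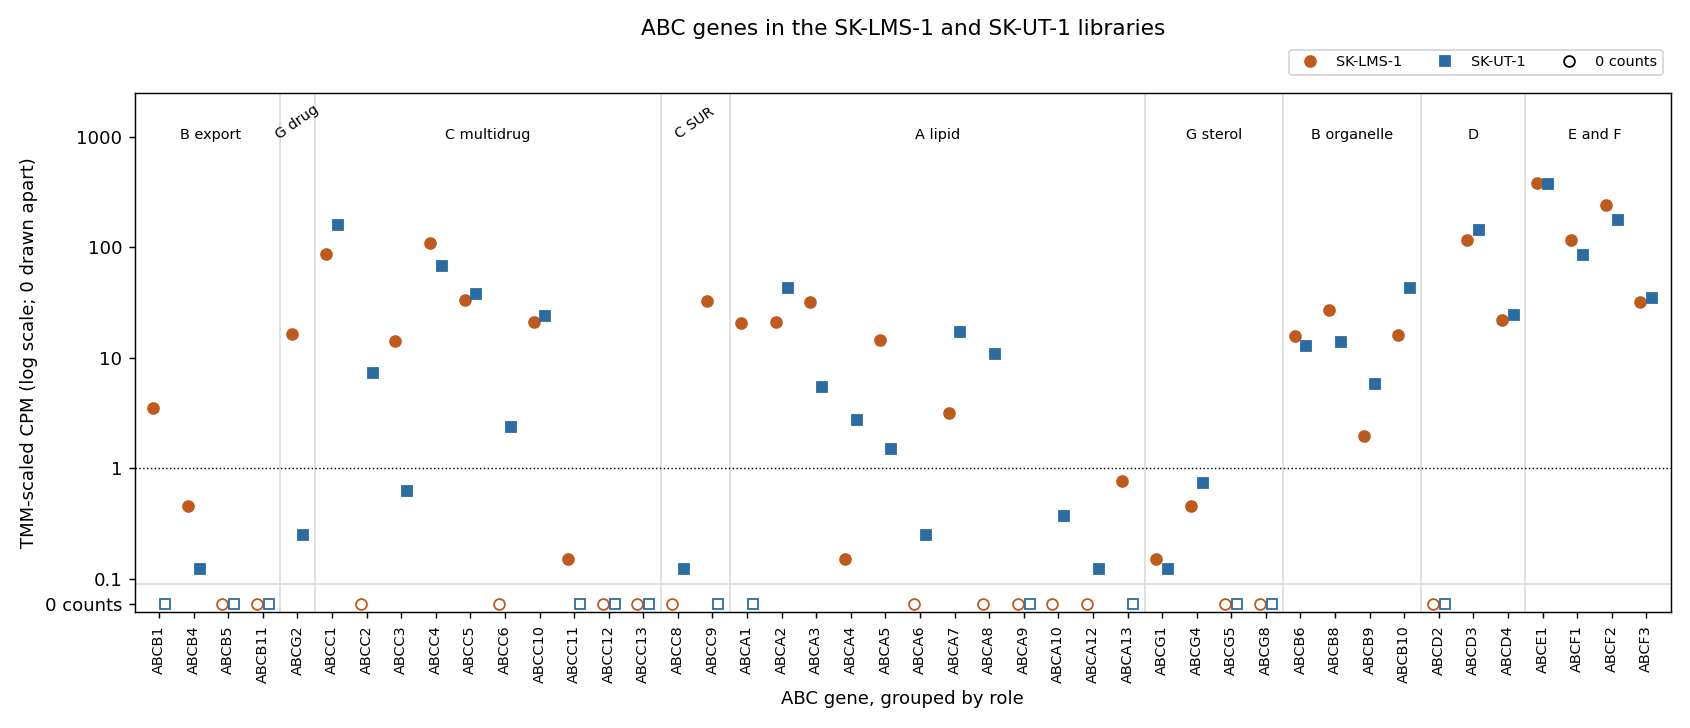
CPM (log axis) of 44 of the 46 ABC genes in SK-LMS-1 (circles) and SK-UT-1 (squares), grouped by role, with open symbols in the bottom row for 0 counts and a dotted line at 1 CPM. The 4 genes of subfamilies E and F lie within 2-fold between the lines, and the 7 measured genes of subfamily A do not.

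Of the broad drug exporters outside subfamily C, ABCB1 and ABCG2 were both higher in SK-LMS-1. ABCB1 (chr7:87503863-87713323, hg38, minus strand) had 23 counts in SK-LMS-1, or 3.51 CPM (exact 95% interval 2.23 to 5.27), and 0 counts in SK-UT-1. A count of 0 was read as a limit of 3 counts, here 0.373 CPM, and the exact 95% upper bound is 0.458 CPM. Against the 3 counts, ABCB1 was 9.42-fold higher in the SK-LMS-1 library, and the exact lower bound of the ratio is 7.06. ABCG2 (chr4:88090264-88231322, minus) had 108 counts, or 16.5 CPM, in SK-LMS-1, against 2 counts, or 0.248 CPM, in SK-UT-1, a 66.3-fold ratio with an interval of 17.9 to 555. Ratios against 1 to 3 counts are given as they stand. By the size rule, which sets the 2 counts to 3, the log2 ratio of ABCG2 was 5.47, below the 5.79 of ABCA1. So both transcripts were found in SK-LMS-1 and neither reached the level of 3 counts in SK-UT-1. Their levels in SK-LMS-1 were still modest per length: TPM (counts per kilobase of exon, scaled to sum to 1000000 in a library) was 2.07 for ABCB1 and 9.64 for ABCG2, against a median of 21.1 TPM over all measured genes of that library. Intervals cover counting error only, and reads amplified by PCR and lacking molecular identifiers cannot be taken as separate molecules.

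The 3 other export pumps of subfamily B were barely detected or had 0 counts. ABCB4, the phosphatidylcholine exporter of the liver, had 3 counts in SK-LMS-1, against 1 in SK-UT-1, although it lies only 28.2 kb from ABCB1 on the same strand. ABCB11, the bile salt export pump, and ABCB5 had 0 counts in both, for which 3 counts equal 0.458 CPM in SK-LMS-1, against 0.373 CPM in SK-UT-1. The exact 95% upper bounds are 0.563 CPM in SK-LMS-1, against 0.458 CPM in SK-UT-1.

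Of the 10 multidrug resistance proteins of subfamily C, 7 were measured. At least 2-fold different were 1 higher in the SK-LMS-1 library and 2 higher in SK-UT-1, beside 40.2% of all measured genes. ABCC3, which exports glucuronide and bile salt conjugates across basolateral membranes, had 93 counts (14.2 CPM) in SK-LMS-1, against 5 counts (0.621 CPM) in SK-UT-1, or 22.8-fold more in SK-LMS-1 (9.45 to 72.0). ABCC2, which exports similar conjugates across the canalicular membrane of hepatocytes, had 0 counts in SK-LMS-1, against 59 counts (7.33 CPM) in SK-UT-1, which makes it at least 16.0-fold higher in the SK-UT-1 library. The conjugate pumps ABCC3 and ABCC2 therefore differed in opposite directions. ABCC6, the gene mutated in pseudoxanthoma elasticum, had 0 counts in SK-LMS-1, against 19 (2.36 CPM) in SK-UT-1, or 5.16-fold over the floor (exact lower bound 3.80). This value is uncertain, since ABCC6 is listed over several loci and its near-identical pseudogenes ABCC6P1 and ABCC6P2 had 0 counts in SK-LMS-1 but 6 and 2 in SK-UT-1.

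The other 4 measured pumps of the group were present in both lines within 2-fold. ABCC1, an exporter of glutathione conjugates and of several cytotoxic drugs, had 570 counts (87.0 CPM) in SK-LMS-1, against 1277 (158.7 CPM) in SK-UT-1, or 1.82-fold more in SK-UT-1 (1.65 to 2.02). It had the highest CPM of the 4 in SK-UT-1. It is also listed over more than 1 locus, which makes it uncertain, and it passes 2-fold when libraries are scaled by their totals or their upper quartiles. ABCC4, which exports cyclic nucleotides and prostaglandins, had 720 counts (109.9 CPM) in SK-LMS-1, against 549 (68.2 CPM) in SK-UT-1, or 1.61-fold more in SK-LMS-1 (1.44 to 1.80). The values within counting error of each other were those of ABCC5, also a cyclic nucleotide exporter, and ABCC10, which can export taxanes. ABCC5 had 220 counts (33.6 CPM) in SK-LMS-1, against 304 (37.8 CPM) in SK-UT-1, or 1.12-fold more in SK-UT-1 (0.943 to 1.34). ABCC10 had 138 counts (21.1 CPM) in SK-LMS-1, against 194 (24.1 CPM) in SK-UT-1, or 1.14-fold more in SK-UT-1 (0.915 to 1.43). Of the remaining 3, ABCC11 had 1 count in SK-LMS-1, against 0 in SK-UT-1, and ABCC12 and ABCC13 had 0 in both. ABCC11 is the gene whose variant sets earwax type, and ABCC13 is truncated in human.

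Summed over ABCB1, ABCG2 and the 10 multidrug ABCC genes, CPM was 285.9 in SK-LMS-1, against 299.3 in SK-UT-1. The sums were close while the make-up differed, with ABCB1, ABCG2 and ABCC3 higher in SK-LMS-1, and ABCC2 and ABCC6 higher in SK-UT-1. ABCC1 and ABCC4 had the largest CPM of the 12 in both libraries.

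ABCC8 and ABCC9 are not exporters but sulfonylurea receptors, regulatory subunits of ATP-sensitive potassium channels. ABCC9 (chr12:21797390-21936694, minus), the form of smooth and heart muscle, had 215 counts (32.8 CPM) in SK-LMS-1, against 0 counts in SK-UT-1. With a ratio of 88.0-fold toward SK-LMS-1 against the 3-count floor (exact lower bound 71.0), it had the largest difference of the family by the size rule. ABCC8, the form of pancreatic beta cells, had 0 counts in SK-LMS-1, against 1 in SK-UT-1. The pore subunits that these receptors assemble with were below 1 CPM in both libraries: KCNJ8 had 3 counts in SK-LMS-1, against 0 in SK-UT-1, and KCNJ11 had 1 count in SK-LMS-1, against 4 in SK-UT-1.

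In subfamily A, whose members move lipids, all 7 measured genes of 12 were past 2-fold, against 40.2% of all measured genes. Of the 7, 3 were higher in SK-LMS-1 and the other 4 higher in SK-UT-1. ABCA1 (chr9:104781003-104928246, minus), which loads cellular cholesterol and phospholipid onto apolipoprotein A-I, had 135 counts (20.6 CPM) in SK-LMS-1, against 0 counts in SK-UT-1. Against the 3-count floor it was 55.3-fold higher in the SK-LMS-1 library (exact lower bound 44.3). ABCA3, known for packing surfactant lipids in the lung, had 209 counts (31.9 CPM) in SK-LMS-1, against 44 (5.47 CPM) in SK-UT-1, or 5.83-fold more in SK-LMS-1 (4.20 to 8.27). ABCA5, an endosomal and lysosomal protein, had 95 counts (14.5 CPM) in SK-LMS-1, against 12 (1.49 CPM) in SK-UT-1, or 9.72-fold more in SK-LMS-1 (5.32 to 19.5).

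The 4 members higher in SK-UT-1 were led by ABCA8, which had 0 counts in SK-LMS-1, against 87 (10.8 CPM) in SK-UT-1. Against the 3-count floor it was 23.6-fold higher in the SK-UT-1 library (exact lower bound 18.8). ABCA8 has been linked to cholesterol efflux. ABCA7, a phospholipid transporter related to ABCA1, had 21 counts (3.20 CPM) in SK-LMS-1, against 138 (17.1 CPM) in SK-UT-1, or 5.35-fold more in SK-UT-1 (3.37 to 8.92). ABCA4, the retinoid transporter of photoreceptors, had 1 count (0.153 CPM) in SK-LMS-1, against 22 (2.73 CPM) in SK-UT-1, a 17.9-fold ratio toward SK-UT-1. Its interval (2.90 to 739) was the widest of the measured ABC genes with counts in both libraries. With its 1 count set to 3, the log2 ratio of SK-LMS-1 over SK-UT-1 was -2.58. ABCA2, a lysosomal lipid transporter, had 138 counts (21.1 CPM) in SK-LMS-1, against 348 (43.2 CPM) in SK-UT-1, or only 2.05-fold more in SK-UT-1 (1.68 to 2.52). ABCA2 thus stood just past the 2-fold size rule with an interval on both sides of it.

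ABCA8 and ABCA5 differed in opposite directions although they are the ends of 1 gene cluster on chromosome 17. The cluster holds ABCA8, ABCA9, ABCA6, ABCA10 and ABCA5 in that order on the minus strand, with gaps of 19.2 kb, 17.7 kb and 6.13 kb before ABCA10, which overlaps ABCA5. The 3 genes in the middle had at most 3 counts: ABCA9 had 0 in both, ABCA6 had 0 in SK-LMS-1, against 2 in SK-UT-1, and ABCA10 had 0 in SK-LMS-1, against 3 in SK-UT-1. ABCA10 and ABCA5 share 287 exon bases, 3.06% of the ABCA5 exons, so a fragment there was counted for both. The last members of the subfamily were ABCA12, a lipid transporter of skin, with 0 counts in SK-LMS-1, against 1 in SK-UT-1, and ABCA13 with 5 in SK-LMS-1, against 0 in SK-UT-1.

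The 4 sterol exporters of subfamily G were below 1 CPM in both lines. ABCG1, which works with ABCA1 in passing cholesterol to lipoproteins, had 1 count in each library, while ABCA1 had 20.6 CPM in SK-LMS-1. ABCG4, a close relative of ABCG1 known from brain, had 3 counts in SK-LMS-1, against 6 in SK-UT-1. ABCG5 and ABCG8, whose proteins pair to export plant sterols in gut and liver and whose genes lie head to head 144 bases apart, had 0 counts in both.

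ABCA1 and ABCG1 are known targets of the oxysterol receptors LXR, which act as dimers with RXR. In a list of 17 genes for these receptors, their cofactors and lipid export, 15 were measured. At least 2-fold higher were 4 in the SK-LMS-1 library (21.9% of all measured genes) and 6 in SK-UT-1 (18.3% of all measured genes). NPC2 (340 counts in SK-LMS-1, against 153 in SK-UT-1) and NPC1 (901 counts in SK-LMS-1, against 416 in SK-UT-1) had ratios toward SK-LMS-1 of 2.73-fold (2.25 to 3.33) and 2.66-fold (2.37 to 3.0). Their proteins release cholesterol from lysosomes. LCAT, the enzyme that esterifies cholesterol in plasma, had 10 counts in SK-LMS-1, against 51 in SK-UT-1, or 4.15-fold more in SK-UT-1 (2.08 to 9.17). SREBF1, a further LXR target that controls fatty acid synthesis, had 161 counts in SK-LMS-1, against 506 in SK-UT-1, or 2.56-fold more in SK-UT-1 (2.14 to 3.07). ABCA1 was thus higher in SK-LMS-1 and SREBF1 in SK-UT-1, while ABCG1, with 1 count in each library, had no readable direction. Of the LXR and RXR genes, NR1H2 was 2.56-fold higher in SK-LMS-1 and RXRA 2.09-fold higher in SK-UT-1. NR1H3 and RXRB were within 2-fold, and RXRG had 0 counts in both. Also in the list, APOE had 0 counts in SK-LMS-1, against 38 in SK-UT-1, and MYLIP leaned toward SK-LMS-1 (1.99-fold). Whether LXR has a part in these differences was not tested.

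The 5 organelle transporters of subfamily B were all measured. At least 2-fold different were 0 higher in the SK-LMS-1 library and 2 higher in SK-UT-1, beside 40.2% of all measured genes. ABCB10, a protein of the mitochondrial inner membrane linked to haem synthesis, had 105 counts (16.0 CPM) in SK-LMS-1, against 349 (43.4 CPM) in SK-UT-1, or 2.71-fold more in SK-UT-1 (2.17 to 3.40). ABCB9, a lysosomal peptide transporter, had 13 counts (1.98 CPM) in SK-LMS-1, against 47 (5.84 CPM) in SK-UT-1, or 2.94-fold more in SK-UT-1 (1.57 to 5.93). ABCB8, of the mitochondrial inner membrane, had 26.9 CPM in SK-LMS-1, against 14.0 CPM in SK-UT-1, a 1.91-fold ratio toward SK-LMS-1 (1.5 to 2.45), just short of 2-fold. ABCB6, linked to porphyrin transport, had 104 counts in each library, a 1.23-fold ratio toward SK-LMS-1 after scaling (0.927 to 1.63).

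In a list of 25 genes of mitochondrial iron-sulfur cluster and haem synthesis, all 25 were measured. Beside 40.2% of all measured genes, 1 of them passed 2-fold. This was ALAS1, which catalyses the first step of haem synthesis, with 244 counts (37.2 CPM) in SK-LMS-1, against 641 (79.6 CPM) in SK-UT-1, or 2.14-fold more in SK-UT-1 (1.84 to 2.49). ABCB10 and ALAS1 were both higher in SK-UT-1, while the other 24 genes of the list were within 2-fold.

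Subfamily D moves fatty acids into peroxisomes and cobalamin (vitamin B12) out of lysosomes. ABCD3, the major peroxisomal fatty acid transporter of the family, had 764 counts (116.6 CPM) in SK-LMS-1, against 1145 (142.3 CPM) in SK-UT-1, or 1.22-fold more in SK-UT-1 (1.11 to 1.34). ABCD2, another peroxisomal fatty acid transporter, had 0 counts in both. ABCD4, the cobalamin transporter, had 143 counts (21.8 CPM) in SK-LMS-1, against 198 (24.6 CPM) in SK-UT-1, or 1.13-fold more in SK-UT-1 (0.904 to 1.41).

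Partners of subfamily D were mostly within 2-fold, as were all measured genes, of which 40.2% were past it. Of 22 genes for peroxisomal import and beta-oxidation, all were measured, 5 higher in SK-LMS-1, 1 higher in SK-UT-1 and 16 within 2-fold. The thioesterase ACOT8 was 3.56-fold more abundant in SK-LMS-1 (8.39 CPM in SK-LMS-1, against 2.36 CPM in SK-UT-1). PEX2, a ubiquitin ligase of the import machinery, was 3.32-fold more abundant in SK-UT-1 (12.7 CPM in SK-LMS-1, against 42.0 CPM in SK-UT-1). Of 10 cobalamin genes, all measured, 2 were higher in SK-LMS-1, while 1 was higher in SK-UT-1. LMBRD1, whose protein works with ABCD4 at the lysosome, had 234 counts in SK-LMS-1, against 128 in SK-UT-1, or 2.25-fold more in SK-LMS-1 (1.80 to 2.81), unlike ABCD4 itself. MMAB, which makes adenosylcobalamin, was 4.68-fold more abundant in SK-LMS-1 (15.1 CPM in SK-LMS-1, against 3.23 CPM in SK-UT-1). MMACHC, which processes cobalamin in the cytosol, was 2.29-fold more abundant in SK-UT-1 (12.1 CPM in SK-LMS-1, against 27.6 CPM in SK-UT-1).

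The 4 ribosome and translation factors of subfamilies E and F were all measured and all within 2-fold, where 40.2% of all measured genes were past it. ABCE1, which splits ribosomes for reuse after termination, had 2505 counts (382 CPM) in SK-LMS-1, against 2996 (372 CPM) in SK-UT-1, a 1.03-fold ratio whose interval (0.974 to 1.08) spans equality. Scaled by library totals or upper quartiles, its log2 ratio was -0.11 or -0.10, on the side of SK-UT-1. ABCF2 had 239.8 CPM in SK-LMS-1, against 177.7 CPM in SK-UT-1, or 1.35-fold more in SK-LMS-1 (1.26 to 1.45). ABCF1 had 115.5 CPM in SK-LMS-1, against 85.2 CPM in SK-UT-1, or 1.36-fold more in SK-LMS-1 (1.22 to 1.51), and is uncertain because it is listed over several loci. ABCF3 had 31.9 CPM in SK-LMS-1, against 35.2 CPM in SK-UT-1, or 1.10-fold more in SK-UT-1 (0.919 to 1.32).

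Partners of these factors were past 2-fold in part, beside 40.2% of all measured genes. Of 16 genes for ribosome recycling, rescue and translation control, all measured, 4 were higher in SK-LMS-1, while 1 was higher in SK-UT-1. PELO, which acts with ABCE1 on stalled ribosomes, had 204 counts in SK-LMS-1, against 81 in SK-UT-1, or 3.09-fold more in SK-LMS-1 (2.38 to 4.05). MCTS1, which recycles the small subunit, had 604 counts in SK-LMS-1, against 214 in SK-UT-1, or 3.47-fold more in SK-LMS-1 (2.96 to 4.07). EIF2S3, a subunit of initiation factor eIF2, had 2023 counts in SK-LMS-1, against 6529 in SK-UT-1, or 2.63-fold more in SK-UT-1 (2.50 to 2.76).

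**Figure D3:**
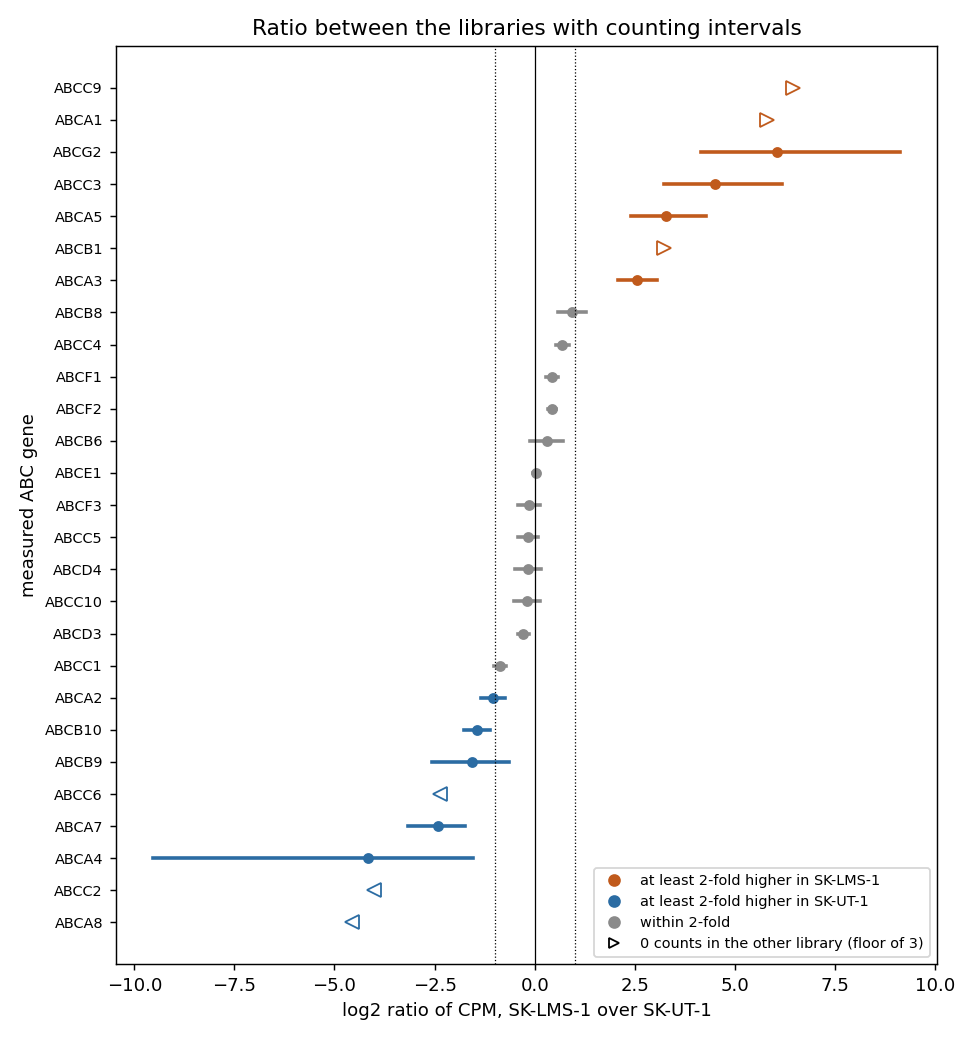
Log2 ratio of SK-LMS-1 over SK-UT-1 for 27 of the 29 measured ABC genes, with bars for the exact 95% counting interval; open triangles show genes at 0 counts in one library, as the ratio against 3 counts, and dotted lines mark 2-fold. The genes run from ABCC9 and ABCA1 at the top to ABCC2 and ABCA8 at the bottom, ordered by the ratio with counts below 3 set to 3. Genes with counts in both libraries are drawn without that step, so ABCG2 and ABCA4 lie farther out than their place in the order. The intervals of ABCA2 and ABCB9, both past 2-fold, cross a dotted line.

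ABC genes under other symbols were looked at too. TAP1 and TAP2, which together carry peptides into the endoplasmic reticulum for antigen presentation, had 229 and 784 counts in SK-LMS-1, against 408 and 483 counts in SK-UT-1. TAP1 was 1.45-fold more abundant in SK-UT-1 (1.23 to 1.71) and TAP2 was 1.99-fold more abundant in SK-LMS-1 (1.78 to 2.24), so the partners of 1 heterodimer leaned opposite ways within 2-fold. The 9 genes of peptide loading were all measured and all within 2-fold, where 40.2% of all measured genes were past it. Whether TAP1, TAP2 or these genes are listed over several loci, as ABCF1 is, was not checked, so their values carry that uncertainty. CFTR, a chloride channel, had 0 counts in both libraries.

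Per transcript length, ABCE1 had the highest level of the family in both lines, 254 TPM in SK-LMS-1, against 276 TPM in SK-UT-1. Next in SK-LMS-1 were ABCF2 (134 TPM) and ABCD3 (85.5 TPM), and ABCC4 had 48.8 TPM. Next in SK-UT-1 were ABCD3 (116 TPM) and ABCF2 (111 TPM), and ABCF3 had 42.5 TPM. The 4 genes of subfamilies E and F made up 53.4% of the family's TPM in SK-LMS-1, against 52.5% in SK-UT-1, so most ABC transcripts by number were of members that are not transporters. The median TPM of the measured ABC genes was 10.8 in SK-LMS-1, where all measured genes had 21.1, and 9.21 in SK-UT-1, where they had 21.6. Within subfamily A the highest levels per length were those of ABCA3 in SK-LMS-1 (13.4 TPM) and ABCA2 in SK-UT-1 (16.1 TPM), and within subfamily C those of ABCC4 in SK-LMS-1 and ABCC1 in SK-UT-1 (37.5 TPM). In subfamily G they were those of ABCG2 in SK-LMS-1 and ABCG4, at 0.588 TPM, in SK-UT-1. The length the authors' table gives for ABCF1 adds its copies on alternate haplotypes, and with the chromosomal locus alone ABCF1 reached 92.9 TPM in SK-LMS-1, against 76.4 TPM in SK-UT-1. With the table's length it had 13.3 TPM in SK-LMS-1, against 10.9 TPM in SK-UT-1. For ABCC1, also listed over more than 1 locus, the chromosomal locus alone gave 36.9 TPM in SK-LMS-1, against 75.1 TPM in SK-UT-1.

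Regulators and conjugation enzymes that surround drug export were looked at next. Of 15 regulators of xenobiotic response, 12 were measured. Against 21.9% of all measured genes, 7 of the 12 were at least 2-fold higher in the SK-LMS-1 library. These 7 were AHR, AHRR, PPARA, PPARD, PPARG, HIF1A and EPAS1, with PPARD (2.06-fold) and HIF1A (2.14-fold) just past the rule. Against 18.3%, 0 were higher in SK-UT-1. The 5 within 2-fold were ARNT, NFE2L2, KEAP1, YBX1 and FOXO3. When libraries are scaled by their totals or upper quartiles, 5 were higher in SK-LMS-1, while 1 was higher in SK-UT-1. AHR, the aryl hydrocarbon receptor, had 1853 counts (283 CPM) in SK-LMS-1, against 11 (1.37 CPM) in SK-UT-1, or 207-fold more in SK-LMS-1 (115 to 415). PPARG, a fatty acid receptor, had 80 counts in SK-LMS-1, against 3 in SK-UT-1, or 32.8-fold more in SK-LMS-1 (10.8 to 162). ABCG2 is a known target of both receptors, and its own ratio of 66.3-fold was in the same direction; whether the receptors have a part in it was not tested. NR1I2, the pregnane X receptor known to induce ABCB1 in liver and gut, had 0 counts in both libraries. NR1I3, also in the list, had 0 counts in SK-LMS-1, against 4 in SK-UT-1.

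Of 17 genes of glutathione synthesis and conjugation, whose products ABCC1, ABCC2 and ABCC3 can export, 16 were measured. In this list 5 were higher in SK-LMS-1, 2 higher in SK-UT-1 and 9 within 2-fold, where 40.2% of all measured genes were past 2-fold. MGST1, a membrane-bound glutathione transferase, had 1646 counts (251 CPM) in SK-LMS-1, against 16 (1.99 CPM) in SK-UT-1, or 126-fold more in SK-LMS-1 (77.6 to 222). GSTM2 had 43 counts in SK-LMS-1, against 0 in SK-UT-1, or 17.6-fold over the 3-count floor (exact lower bound 13.7), with the caution that GSTM genes are close copies of each other. GSTM3 was 3.44-fold (8.85 CPM in SK-LMS-1, against 30.4 CPM in SK-UT-1) and GSTA4 2.10-fold (8.39 CPM in SK-LMS-1, against 17.6 CPM in SK-UT-1) higher in SK-UT-1. Organic solute carriers, which mostly bring compounds into cells, were fewer: of 17, 10 were measured. Past 2-fold were 2 higher in SK-LMS-1 and 2 higher in SK-UT-1, beside the same 40.2% of all measured genes. The cation carrier SLC22A3 had 50 counts in SK-LMS-1, against 0 in SK-UT-1, or 20.5-fold over the 3-count floor (exact lower bound 16.0). SLC22A4, of the same carrier family, had 33 counts in SK-LMS-1, against 5 in SK-UT-1, or 8.11-fold more in SK-LMS-1 (3.15 to 26.6). SLC47A1 (MATE1), a proton-coupled exporter of organic cations outside the ABC family, had 0 counts in SK-LMS-1, against 294 (36.5 CPM) in SK-UT-1. Against the 3-count floor it was 79.8-fold higher in the SK-UT-1 library (exact lower bound 64.5). The nucleoside carrier SLC29A2 had 6 counts in SK-LMS-1, against 79 in SK-UT-1, or 10.7-fold more in SK-UT-1 (4.71 to 30.1).

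Over the 11 partner lists together, 137 of 153 genes were measured, 29 higher in SK-LMS-1, 14 higher in SK-UT-1 and 94 within 2-fold, beside 21.9% of all measured genes higher in SK-LMS-1 and 18.3% higher in SK-UT-1. Their median log2 ratio was 0.14, against 0.01 over all measured genes. By list, the median was 1.07 for the xenobiotic regulators, 0.65 for the peroxisome list, 0.38 for peptide loading, 0.27 for the uptake carriers, 0.11 for the glutathione list, 0.09 for the ribosome partners, 0.04 for the cobalamin list, -0.09 for the LXR and RXR list and -0.41 for the iron-sulfur and haem list.

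**Figure D4:**
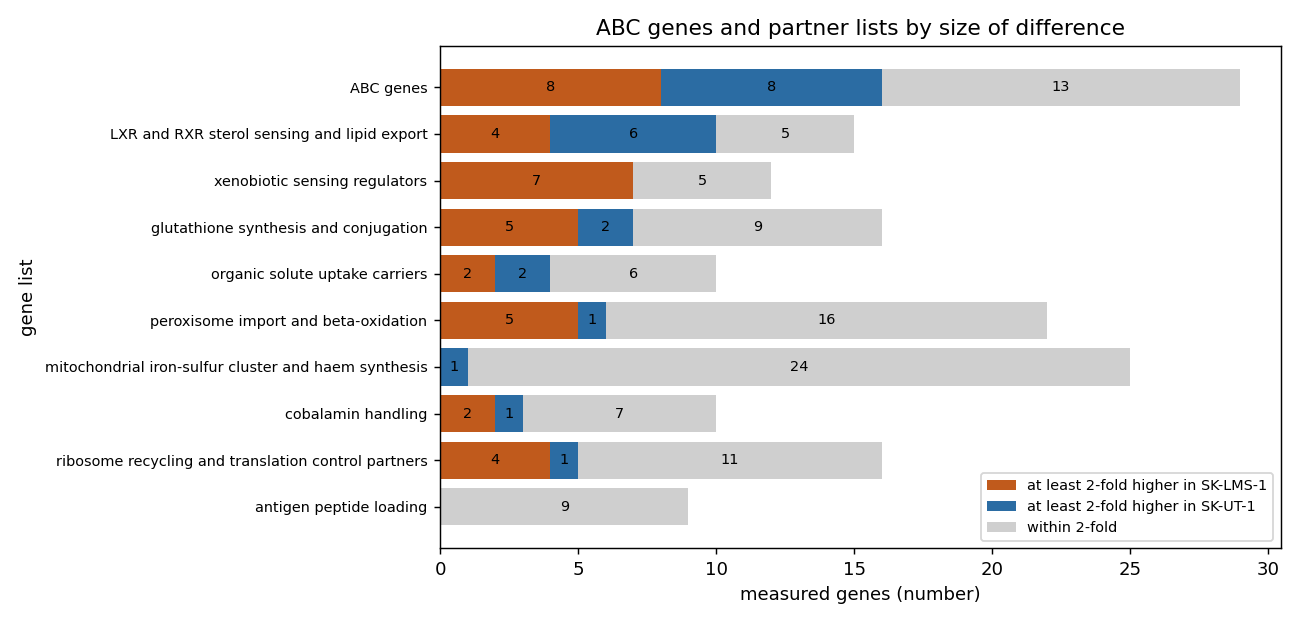
Number of measured genes (horizontal) in the ABC family and in 9 of the 11 partner lists, split into genes at least 2-fold higher in the SK-LMS-1 library, at least 2-fold higher in the SK-UT-1 library and within 2-fold. The ABC bar holds 8, 8 and 13 genes, the xenobiotic regulators 7, 0 and 5, and the iron-sulfur and haem list 0, 1 and 24.

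The starts of measured and unmeasured ABC genes differed in base composition. RefSeq windows were found for 35 of the 46 genes, and 1 was used per gene. The 23 windows of measured genes held a median of 29.0 CG dinucleotides (range 1 to 66), and the 12 windows of genes below 1 CPM a median of 2.50 (range 0 to 28), against 14.0 over all 35116 RefSeq windows. With the outermost listed start the medians were 26.0 and 3.0. Genes higher in SK-LMS-1 (6 windows) and genes higher in SK-UT-1 (6 windows) both had a median of 29.0, and genes within 2-fold (11 windows) had 28.0, so the medians did not differ by direction. ABCC2, with 1, was the measured gene with the fewest, and ABCG4, with 28, the unmeasured gene with the most. A GC box (GGGCGG, or CCGCCC on the other strand) was present in 17 of the 23 windows of measured genes and 1 of the 12 others, against 45.0% of all windows. With the outermost listed start it was present in 15 and 2. The RefSeq windows were not split into measured and unmeasured genes. Whether these contrasts are particular to ABC genes was therefore not tested. The core letters bound by AHR with its partner (GCGTG, or CACGC) occurred in 45.7% of the 35 windows, against 36.5% of all. They occur 2 times in the ABCG2 window, 1 time in ABCB1, 4 times in ABCE1 and not in ABCA1 or ABCC2. A match of letters is a description and shows no binding.

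**Figure D5:**
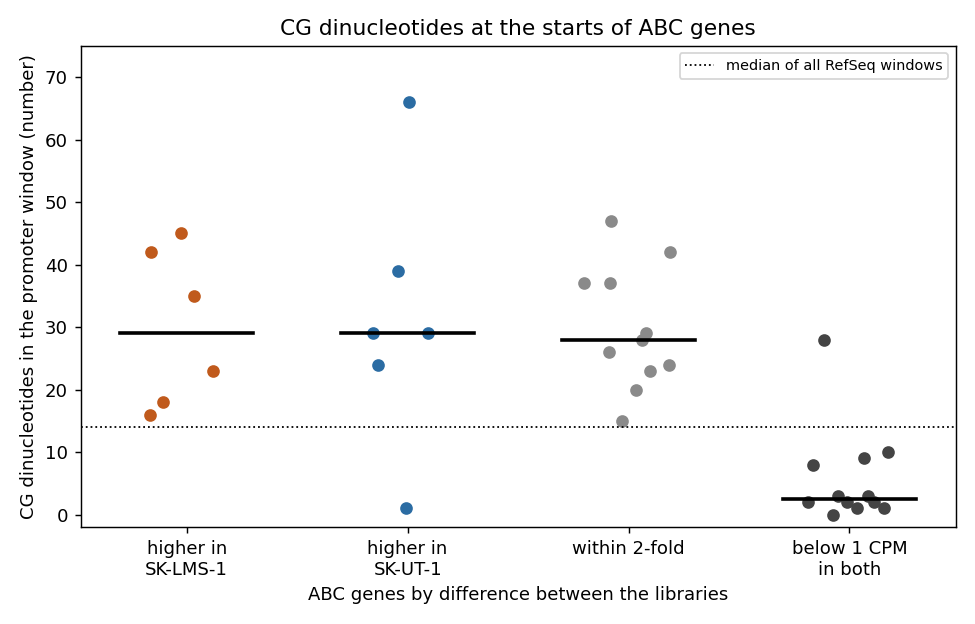
Number of CG dinucleotides (vertical) in the RefSeq start windows of 35 ABC genes, grouped by the difference between the libraries; each point is a gene, bars are medians and the dotted line is the median of all RefSeq windows. The measured groups have medians of 29.0, 29.0 and 28.0, and the genes below 1 CPM in both libraries have 2.50.

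The labelled cell type was set beside its markers. Of 12 smooth muscle markers, 8 were at 1 CPM or more in SK-LMS-1, against 9 in SK-UT-1. Their summed level was 1523 CPM in SK-LMS-1, against 574.4 CPM in SK-UT-1, led by CALD1. MYOCD had 0 counts in both, and MYH11 was below 1 CPM in both (5 counts in SK-LMS-1, against 2 in SK-UT-1). The list went both ways, with 5 markers at least 2-fold higher in the SK-LMS-1 library and 3 higher in SK-UT-1. MYLK had 414 CPM in SK-LMS-1, against 9.94 CPM in SK-UT-1, and TAGLN had 61.8 CPM in SK-LMS-1, against 5.34 CPM in SK-UT-1. Toward SK-UT-1, ACTA2 had 10.5 CPM in SK-LMS-1, against 54.0 CPM in SK-UT-1, and DES had 0.153 CPM in SK-LMS-1, against 3.23 CPM in SK-UT-1. Mesenchymal markers reached 1 CPM for 6 of 6 in SK-LMS-1, against 5 of 6 in SK-UT-1. Their sums, led by VIM, were 11875 CPM in SK-LMS-1, against 5576 CPM in SK-UT-1. FN1 had 2069 CPM in SK-LMS-1, against 0.745 CPM in SK-UT-1. COL1A1 had 775.9 CPM in SK-LMS-1, against 54.9 CPM in SK-UT-1. COL3A1 went the other way (5.65 CPM in SK-LMS-1, against 201 CPM in SK-UT-1). Epithelial markers reached 1 CPM for 4 of 6 in each line, with sums of 178.3 CPM in SK-LMS-1, against 47.96 CPM in SK-UT-1. They were led by KRT7 in SK-LMS-1 (78.6 CPM) and KRT19 in SK-UT-1, and CDH1 had 0 counts in SK-LMS-1. EPCAM had 1 count in SK-LMS-1, against 9 in SK-UT-1. Endothelial markers summed to 1.53 CPM in SK-LMS-1, against 0 in SK-UT-1, with VWF, KDR and TEK at 0 in both, and 4 hepatocyte markers were at 0 in both. Leukocyte markers summed to 92.3 CPM in SK-LMS-1, against 15.7 CPM in SK-UT-1, nearly all from CD68, a lysosomal gene that other cells also express, with PTPRC and LYZ at 0 in both. The smooth muscle, mesenchymal and epithelial sums, each carried by a few genes, were higher in SK-LMS-1 while single markers of each list were higher in SK-UT-1, and their part in the ABC differences was not tested.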

How the data were processed

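Total RNA libraries of SK-LMS-1 and SK-UT-1 (stranded SMARTer kit, per the labels' protocols) were analysed from the authors' deposited raw counts, made with featureCounts 2.0.1 on hg38 with strand setting 1, per the file headers. For the aligner, the sources used here give no name. The header records that a fragment over several genes was counted for each. The table also gives exon lengths and 2 further count columns, not used here.

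CPM values were computed with edgeR 4.0.16 (TMM factors: SK-LMS-1, 0.949, and SK-UT-1, 1.05) in R 4.3.3, and TPM from the deposited counts and lengths. Genes were measured at 1 CPM in the higher library (6.55 SK-LMS-1 counts or 8.05 SK-UT-1 counts). A fold against 0 counts is a ratio to the 3-count floor (0.458 CPM for the SK-LMS-1 library, 0.373 CPM for the SK-UT-1 library), not a 95% limit. Ratios have exact conditional binomial (Clopper-Pearson) 95% intervals from scipy 1.17.1. The computation was tested on simulated counts.

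With 1 library per line no test was made. Members and lists were chosen with earlier results of these data known. All members were counted, and a few genes are not reported here. Members of partner lists were named by largest ratio, up to 2 per direction, at 2-fold and 5 CPM. NR1I2, NR1I3, TAP1, TAP2, CFTR, the potassium channel pores, ACTA2, DES, MYLK, MYH11, TAGLN, COL3A1, FN1, COL1A1 and EPCAM were added after their values were seen. So were the LXR and RXR genes, APOE, MYLIP and the measured xenobiotic regulators other than AHR and PPARG. The promoter windows come from RefSeq (GRCh38.p14). Alternatives were other scalings (library totals, upper quartile, DESeq2 1.42.0 size factors), filters, size rules, floors and lengths.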

Additional observations from a re-analysis of the deposited data

How the results depend on the processing

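The 2-fold calls of all 16 ABC genes were the same with DESeq2 size factors. Scaling by library totals or upper quartiles moved the median log2 ratio of all measured genes to -0.15 and -0.14 and that of the ABC genes to -0.11 and -0.10. Both scalings left 0 genes of subfamily D higher in SK-LMS-1 and took ABCC1 past 2-fold, giving 7 ABC genes higher in SK-LMS-1, with 9 higher in SK-UT-1. Both also gave 2 ribosome partners higher in SK-LMS-1, in place of 4, and 5 xenobiotic regulators, in place of 7. They gave more genes higher in SK-UT-1: 1 xenobiotic regulator, 5 iron-sulfur and haem genes and 2 cobalamin genes. The ABC median was 0.17 at 5 CPM or more, 0.17 without genes that overlap others or are listed over several loci, and 0.30 with no filter, which is the ratio of the floors. A 4-fold rule kept 5 genes higher in SK-UT-1, and a whole interval beyond 2-fold kept 7 higher in SK-LMS-1 and 6 higher in SK-UT-1. With chromosomal lengths ABCF1 ranked 3 in SK-LMS-1, against 4 in SK-UT-1 among ABC genes by TPM, in place of 12 and 14. Depth limits detection to about 0.458 CPM in SK-LMS-1, against 0.373 CPM in SK-UT-1. No paired analysis was possible because each line has 1 library and the result comes from no test.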
